A study of Mus musculus with 20 samples.

Results

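The 9 genes described here encode the major histocompatibility complex (MHC) class II pathway: the chains H2-Aa, H2-Ab1 and H2-Eb1, the loading proteins Cd74, H2-DMa, H2-DMb1, H2-Oa and H2-Ob, and the transactivator Ciita. They were taken by gene name from 56748 genes in 2 count tables of mouse macrophage RNA-seq. The group was chosen because H2-Aa and H2-Ab1 were near absent in RAW264.7 cells and induced in libraries labelled as bone marrow-derived macrophages (BMDM). Those values are therefore given as a description, without a test. The study asked how nitric oxide and the enzyme AKR1A1 remodel macrophages during classical activation, the inflammatory state brought on by LPS and IFNγ.

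In the first table, 12 libraries came from wildtype (WT) and iNOS knockout (KO) cells, either untreated or treated with IFNγ and 50 ng/mL LPS for 48 h, and each group had 3 libraries. Their labels describe macrophages grown with M-CSF (20 ng/mL) from the marrow of WT or iNOS KO C57BL/6J mice of either sex, 6 to 12 weeks old, and stimulated with 30 ng/mL IFNγ. The study's methods pool marrow by genotype and name the KO strain B6.129P2-Nos2 tm1Lau/J, but they describe this RNA-seq experiment as RAW264.7 cells, which received 10 ng/mL IFNγ. The libraries are called BMDM-labelled here. In the second table, 8 libraries came from RAW264.7 cells, a mouse macrophage line, that were WT or Akr1a1 KO (CRISPR-Cas9 clones), in the same states with 10 ng/mL IFNγ and 2 libraries per group. The methods call these libraries independent clonal replicates. The titles of 2 of the 4 unstimulated RAW264.7 libraries, replicate B of each genotype, read stimulated, while their treatment fields and library names say unstimulated, which was followed. The labels do not tie BMDM-labelled replicates to separate cultures or animals, so the p-values there may measure technical spread.

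MHC class II molecules are pairs of an α and a β chain that present peptides from endosomes to CD4+ T cells. The invariant chain, encoded by Cd74, escorts new pairs to the endosome and blocks their groove. H2-DM, the product of H2-DMa and H2-DMb1, exchanges the remnant of the invariant chain for peptide, and H2-O, from H2-Oa and H2-Ob, restrains H2-DM. Transcription depends on CIITA, a coactivator that binds no DNA itself and is recruited by the RFX and NF-Y complexes on the X and Y boxes of class II promoters. In macrophages IFNγ induces Ciita through JAK kinases and IRF1.

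The count table listed 7 of the 9 genes on chromosome 17, within the MHC, and Ciita (ENSMUSG00000022504) on chromosome 16 from 10297923 to 10346282. Cd74 (ENSMUSG00000024610) lay outside the MHC. H2-Aa (ENSMUSG00000036594) lay on the minus strand from 34501718 to 34506797, between H2-Ab1 (ENSMUSG00000073421, 34476663 to 34488393) and H2-Eb1 (ENSMUSG00000060586, 34524841 to 34535648). The table names no genome build, and its positions differ from GRCm38, so they are given only as listed.

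Promoter windows of RefSeq's GRCm38.p6 annotation, from 250 bases before to 50 bases after each gene start, were matched for 6 of the 9 genes. The motifs searched on both strands were the Y box core ATTGG (complement CCAAT), the gamma-activated site TTCNNNGAA, an element of IFNγ-responsive promoters, and an X core CNNGNAAC, which was chosen after the sequences had been seen. Matches of different motifs could overlap. An X core followed on the same strand by a Y box core 20 to 45 bases further on, start to start, was found upstream of H2-Aa, H2-Eb1, H2-DMb1, H2-Oa and H2-Ob. It was also found upstream of H2-Eb2, a related chain gene that is not among the 9. The window of H2-DMb2, a paralog of H2-DMb1 also outside the 9, held no such pair but 1 gamma-activated site. The 6 windows with this pair are shown because RFX and NF-Y recruit CIITA through X and Y boxes. Binding was not measured, and these windows hold sequence matches only. They are written 5′ to 3′ in the direction of transcription, with the X core and then the Y box core in capitals.
H2-Aa, chr17:34287863-34287911, minus strand: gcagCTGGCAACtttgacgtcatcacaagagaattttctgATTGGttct
H2-Eb1, chr17:34305769-34305816, plus strand: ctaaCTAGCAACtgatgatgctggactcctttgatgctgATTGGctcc
H2-DMb1, chr17:34153090-34153138, plus strand: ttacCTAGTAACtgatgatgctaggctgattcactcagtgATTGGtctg
H2-Oa, chr17:34092296-34092344, plus strand: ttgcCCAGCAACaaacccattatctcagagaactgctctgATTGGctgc
H2-Ob, chr17:34238811-34238856, plus strand: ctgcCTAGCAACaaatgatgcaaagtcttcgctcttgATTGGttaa
H2-Eb2, chr17:34325536-34325583, plus strand: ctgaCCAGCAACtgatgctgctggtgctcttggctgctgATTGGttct

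The X and Y cores were 33 to 36 bases apart in these 6 windows, and all lay before the gene start. The combination was held by 1.06% of 32851 promoter windows on either strand, while an X core alone was in 39.1%, a Y box core alone in 37.4% and a gamma-activated site in 8.3%. Since the X core was chosen after these sequences had been seen, the shares do not measure enrichment. The 2 windows of H2-DMa held no such pair, and none of the 7 windows of the 6 genes held a gamma-activated site. Sharing the pair of matches did not mean sharing a level, since H2-Eb2 had 0 counts in all 20 libraries and H2-Ob had 1 count in the 12 BMDM-labelled libraries.

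**Figure D1:**
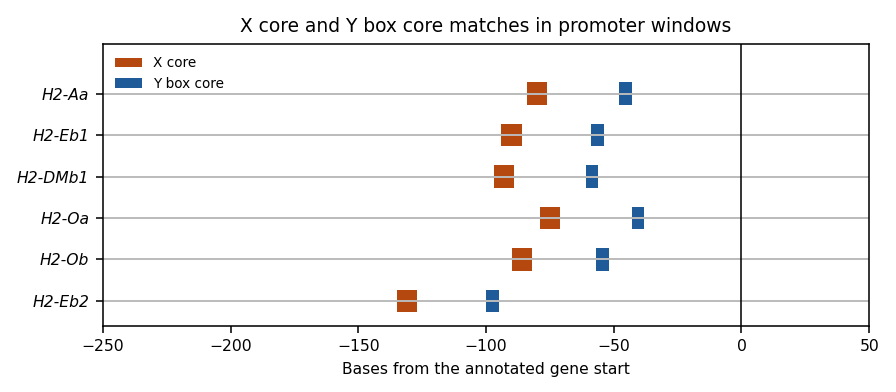
Position of the X core (orange) and Y box core (blue) in the promoter windows, in bases from the annotated gene start, which is at 0. The X core began 79 to 97 bases before the start in H2-Aa, H2-Eb1, H2-DMb1, H2-Oa and H2-Ob and 135 bases before it in H2-Eb2.

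The BMDM-labelled libraries held 15072109 to 18878107 counts each and the RAW264.7 libraries 11876719 to 44583327. Levels are given as CPM, in which each library is scaled to a common total after TMM adjustment for composition. Nos2, the gene of iNOS, was at 10368 to 11531 CPM in stimulated WT and at 870 to 912 CPM in stimulated iNOS KO libraries. Akr1a1 in RAW264.7 cells was at 427 to 675 CPM in WT and at 21.8 to 370 CPM in KO libraries. Replicate B of stimulated iNOS KO cells stood apart, with a chi-square per gene of 34.6 and 44.1 against its replicates, where all other pairs of BMDM-labelled replicates had 2.87 to 9.2. Of the macrophage markers, Adgre1, Csf1r, Cd68 and Lyz2 were detected in every library, while Mertk and Mrc1 stayed at or under 6.58 CPM in the BMDM-labelled libraries. Pycard, which RAW264.7 cells are known to lack, was at 0 to 0.832 CPM in the BMDM-labelled libraries and 0.0785 to 0.563 CPM in RAW264.7 cells. H2-Ea, a class II α chain gene that C57BL/6 mice are known not to transcribe, was at 9.35 to 9.52 CPM in stimulated WT and 5.72 to 5.84 CPM in stimulated iNOS KO BMDM-labelled libraries, and had 0 counts in RAW264.7 cells. Transcription of H2-Ea is at odds with the C57BL/6J label, and the low level of Pycard is shared with RAW264.7 cells. No library was reassigned, and the origin of the BMDM-labelled cells remains uncertain here.

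In unstimulated BMDM-labelled cells the pathway was nearly silent apart from Cd74 and H2-DMa, and after LPS and IFNγ every gene but H2-Ob was above its resting level in both genotypes. Ciita, the transactivator, had 2, 0 and 1 counts in unstimulated WT libraries and 1, 0 and 0 in unstimulated iNOS KO libraries. After stimulation it was at 18.4, 23.3 and 22.3 CPM in WT and 7.78, 11.3 and 7.34 CPM in iNOS KO libraries. The stimulated groups of the 2 genotypes did not overlap. From group totals, Ciita was 392 times its resting level in WT (95% counting interval 134 to 1906) and 532 times in iNOS KO cells (94.9 to 21040), and with so few resting counts these ratios cannot be told apart. Intervals of this kind cover counting error only. In bulk samples fewer cells expressing a gene and less RNA per cell cannot be told apart either.

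The α chain H2-Aa had 0 counts in all 6 unstimulated libraries. After stimulation it was at 11.8, 12.6 and 12.2 CPM in WT and 6.23, 6.78 and 5.85 CPM in iNOS KO libraries. Against 3 counts over the resting group, this was at least 225-fold higher in WT and at least 128-fold higher in iNOS KO cells. Its partner, the β chain H2-Ab1, had 2 counts over the unstimulated libraries of each genotype. It was at 10.7, 13.6 and 12.9 CPM in stimulated WT and 3.53, 3.68 and 2.81 CPM in stimulated iNOS KO libraries, a wider gap between the genotypes than in either other chain. The β chain H2-Eb1 had 1 count in total at rest and was at 15.6, 16.3 and 17.8 CPM in stimulated WT and 8.23, 8.65 and 7.28 CPM in stimulated iNOS KO libraries. For each of the 3 chains the lowest stimulated WT library lay above the highest stimulated iNOS KO library, a pattern whose share among all genes was not counted.

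Cd74 was the member with a substantial level at rest. Unstimulated WT libraries held 132, 130 and 136 CPM and unstimulated iNOS KO libraries 149, 163 and 156 CPM, so the KO libraries lay slightly above. After stimulation the order turned, with 929, 911 and 1031 CPM in WT and 519, 629 and 559 CPM in iNOS KO libraries. On group totals stimulated cells held 7.21 times the resting level of Cd74 in WT and 3.63 times in iNOS KO cells.

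H2-DMa, the α chain of the peptide exchanger, was at 5.43, 3.61 and 4.99 CPM in unstimulated WT and 5.34, 4.78 and 4.63 CPM in unstimulated iNOS KO libraries. Stimulated libraries held 24.1, 21.9 and 22.1 CPM in WT and 13.3, 17.7 and 12.5 CPM in iNOS KO cells. Its partner H2-DMb1 had 7 counts over the unstimulated WT and 1 count over the unstimulated iNOS KO group. It was at 2.22, 2.77 and 2.7 CPM in stimulated WT and 0.707, 1.15 and 1.02 CPM in stimulated iNOS KO libraries. H2-DMb1 has a close paralog, H2-DMb2, and reads that fit both could not be told apart here.

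H2-Oa and H2-Ob, the H2-O chains, had the lowest levels of the 9 per kilobase in stimulated WT cells. H2-Oa was at 0.831, 1.28 and 1.39 CPM in stimulated WT and 0.9, 0.721 and 1.07 CPM in stimulated iNOS KO libraries, which overlapped. Unstimulated libraries held 0 to 6 counts of it. H2-Ob had a single count, in a stimulated WT library, so the H2-O pair was represented by the transcript of its α chain alone at this depth.

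**Figure D2:**
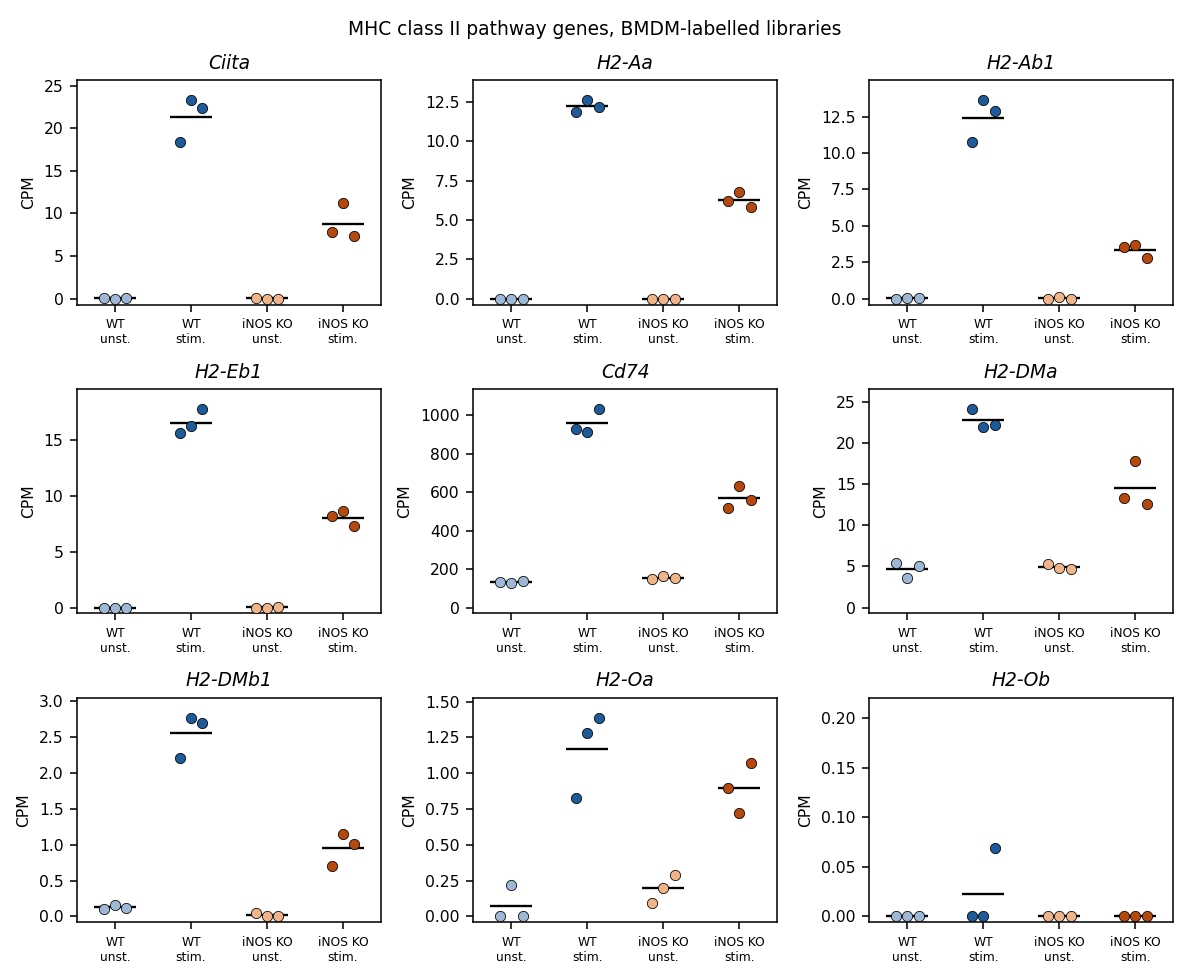
CPM of each of the 9 genes in the 12 BMDM-labelled libraries, on a linear axis, with a point per library and a bar at the mean of the 3 libraries of a group. Stimulated WT points lie above stimulated iNOS KO points in all panels but H2-Oa and H2-Ob, and among unstimulated libraries only Cd74 and H2-DMa stand clearly above 0.

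Per kilobase of the gene length that the table lists, the members spanned a wide range in stimulated WT cells. Cd74 led at 570 ± 38.7 CPM per kilobase (SD, n = 3), far above the chains it escorts. H2-Eb1 followed at 8.54 ± 0.569, H2-DMa at 6.59 ± 0.347 and H2-Ab1 at 4.84 ± 0.587 CPM per kilobase. H2-Aa was at 3.22 ± 0.103, Ciita at 2.24 ± 0.27, H2-DMb1 at 1.52 ± 0.18 and H2-Oa at 0.829 ± 0.21 CPM per kilobase. In this order neighbouring genes did not overlap between libraries. In stimulated iNOS KO cells Cd74 was again highest, at 339 ± 33.2 CPM per kilobase, and H2-DMa (4.21 ± 0.816) and H2-Eb1 (4.14 ± 0.361) could not be ordered. H2-Aa (1.66 ± 0.123) lay above H2-Ab1 (1.3 ± 0.182 CPM per kilobase), the reverse of the order in WT. Below them, the libraries of H2-Ab1 and Ciita (0.922 ± 0.225) overlapped, as did those of H2-Oa (0.638 ± 0.125) and H2-DMb1 (0.57 ± 0.136 CPM per kilobase). Because the origin of these cells is uncertain, their class II alleles may differ from those of the reference genome used for alignment. The part of alignment in the levels of the chains, their order and their distance to Cd74 was not tested.

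Stimulated iNOS KO cells held less of 7 of the 8 members that could be tested, and none was higher. Of all 18691 genes tested, 24.1% were lower and 24.2% higher in that comparison (adjusted p under 0.05), so a call in either direction was common. The median log2 fold change was -1.003 over the 8 members tested and -0.04 over all genes. H2-Ob did not reach the 10 counts required for testing. The members had been chosen on their induction, which these stimulated libraries share, though not on the difference between genotypes.

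H2-Ab1 fell most, to 26.8% of WT. Its log2 fold change was -1.90, with a standard error of 0.19 (adjusted p = 2.89e-07, quasi-likelihood test of edgeR, Benjamini-Hochberg). H2-DMb1 fell to 37.4% of WT (-1.42 on the log2 scale, standard error 0.29, adjusted p = 0.000565) and Ciita to 41% (-1.29, standard error 0.17, adjusted p = 5.61e-06). The chains H2-Eb1 and H2-Aa were at 48.4% (-1.05, adjusted p = 1.15e-05) and 51.4% of WT (-0.96, adjusted p = 5.74e-05). Cd74 was at 59.5% (-0.75, standard error 0.07, adjusted p = 1.97e-07) and H2-DMa at 63.7% (-0.65, standard error 0.14, adjusted p = 0.000849). In each of these 7 genes all 3 iNOS KO libraries lay below all 3 WT libraries. How many of all genes separate in this way was not counted, so the separation is not read as a trait of these members. H2-Oa was not called, at -0.36 on the log2 scale (95% interval -1.31 to 0.58, adjusted p = 0.536), an interval that spans the changes of Cd74 and H2-DMa. Without replicate B of stimulated iNOS KO cells, which stood apart, 7 members were again lower.

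**Figure D3:**
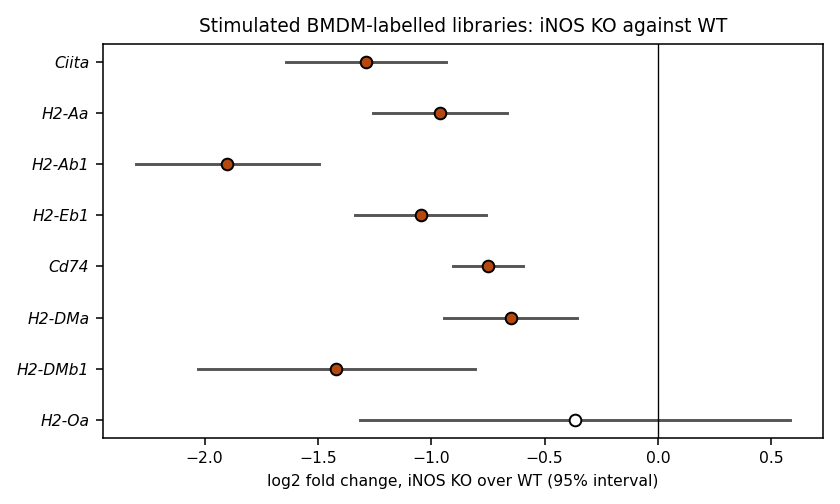
Log2 fold change of stimulated iNOS KO over stimulated WT BMDM-labelled libraries for the 8 members tested, with 95% intervals. Filled points have an adjusted p under 0.05. H2-Ab1 lies farthest from 0 at -1.90, and the interval of H2-Oa alone crosses 0.

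Markers of other cell types were compared over the same libraries. The 8 macrophage markers summed to 6206 to 6948 CPM in stimulated WT and 9492 to 9893 CPM in stimulated iNOS KO libraries, a difference carried by Lyz2 (3391 to 3846 and 7098 to 7365 CPM). Adgre1 (1395 to 1506 and 919 to 966 CPM), Cd68 (814 to 914 and 690 to 757 CPM) and Mertk (5.12 to 6.58 and 0.865 to 0.955 CPM) went the other way. The 7 dendritic cell markers summed to 92.7 to 106 CPM in stimulated WT and 28.8 to 31.1 CPM in stimulated iNOS KO libraries, a difference carried by Itgax (91.5 to 104 and 26 to 27.7 CPM), which macrophages also express. Xcr1 (0.27 to 0.762 and 1.3 to 1.61 CPM) and Zbtb46 (0.415 to 0.878 and 0.9 to 2.15 CPM) went the other way, and Clec9a overlapped. Flt3, Cd209a and Dpp4 had 3 counts or fewer in every library. The 6 B cell markers summed to 1.22 to 2.01 CPM in stimulated WT and 0.257 to 0.657 CPM in stimulated iNOS KO libraries, with Cd79a and Ms4a1 at 3 counts or fewer in every library. The T cell sum was at or under 0.692 CPM in these libraries. Fibroblast markers summed to 3.58 to 4.92 CPM in stimulated WT and 10.4 to 15.8 CPM in stimulated iNOS KO libraries, a difference carried by Dcn (2.23 to 2.56 and 10.3 to 15.5 CPM). Pdgfra went the other way (1.35 to 2.29 and 0.0721 to 0.239 CPM), and Col1a1, Col1a2 and Col3a1 had 3 counts or fewer. The 5 neutrophil markers summed to 34.7 to 61.2 and 37.2 to 42.9 CPM, nearly all of it S100a8, and 0.433 to 1.11 CPM at rest. The part of these markers in the difference between genotypes was not tested.

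Before stimulation no member passed in edgeR's test or in DESeq2 between iNOS KO and WT cells. An unadjusted p under 0.05 was reached by 2 members and by 3198 of all 18691 genes tested. H2-Aa, H2-Ab1, H2-Eb1, H2-DMb1 and Ciita had 0 to 7 counts per resting group and reached 10 counts only through stimulated libraries. The test could hardly call them at rest, so this result bears mainly on Cd74 and H2-DMa. Among all genes 1.88% were higher and 4.09% lower. Cd74 was higher in all 3 iNOS KO libraries, by 0.23 on the log2 scale (standard error 0.07, adjusted p = 0.0837). Its adjusted p ranged from 0.000633 to 0.258 over the alternatives, and it passed with edgeR's filterByExpr, with no filter on low counts and with only these groups in the fit. H2-DMb1, the other member with an unadjusted p under 0.05, rested on 7 counts in WT and 1 in KO libraries (adjusted p = 0.157). H2-DMa was at 0.07 on the log2 scale (95% interval -0.29 to 0.43).

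The response to stimulation differed between the genotypes for Cd74 and H2-DMa, the members with counts at rest in every library. The interaction, the log2 response in iNOS KO minus that in WT cells, was -0.98 for Cd74 (standard error 0.10, adjusted p = 1.06e-06) and -0.72 for H2-DMa (standard error 0.22, adjusted p = 0.0161). Among all genes 20.0% had a larger and 15.4% a smaller response in iNOS KO cells. The adjusted p of H2-DMa ranged from 0.000325 to 0.0498 over the alternatives. For H2-Aa, H2-Ab1, H2-Eb1, H2-DMb1 and Ciita the resting groups had 0 to 7 counts, so a ratio of responses could not be estimated. H2-Oa, with 4 and 12 resting counts, did not pass (adjusted p = 0.208), but passed without replicate B of unstimulated WT cells, which held all 4 WT counts (adjusted p = 0.0115, range 0.0115 to 0.434 over the alternatives).

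Ratios between members were compared within libraries. Per kilobase, the ratio of H2-Ab1 to its partner H2-Aa was 1.34, 1.6 and 1.56 in stimulated WT and 0.839, 0.802 and 0.709 in stimulated iNOS KO libraries. The means were 1.5 ± 0.14 and 0.783 ± 0.0667 (SD, n = 3), and the groups did not overlap. A two-sided exact permutation test gave p = 0.1, the smallest value 3 against 3 libraries allow, and 0.24 after adjustment over the 6 ratios compared. The ratio of H2-DMa to H2-DMb1 also separated the groups, at 4.39 ± 0.797 in WT and 7.56 ± 1.58 in iNOS KO cells (SD, n = 3, exact permutation p = 0.1, adjusted 0.24). By contrast, H2-Eb1 over H2-Aa was 2.65 ± 0.174 and 2.5 ± 0.0732 (SD, n = 3), with overlapping libraries. Cd74 over H2-Aa was 177 ± 14 and 205 ± 14.5 and Ciita over H2-Aa 0.694 ± 0.0648 and 0.553 ± 0.0939 (SD, n = 3), and H2-DMa over H2-Oa overlapped as well. Exact permutation p-values of these 4 ratios ranged from 0.2 to 0.5. The part of alignment to the reference genome in the ratios that include H2-Aa was not tested either.

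The rest of the pathway was followed in 41 listed symbols, older spellings included, of which 38 were in the table and 37 were tested. Between stimulated iNOS KO and WT cells 9 of the 37 were higher and 18 lower, beside the 24.2% and 24.1% of all genes, and their median log2 fold change was -0.20. The class II genes outside the 9 were lower, H2-Ea at 61% (log2 fold change -0.71, adjusted p = 0.000895) and H2-DMb2 at 48.8% of WT (-1.03, adjusted p = 0.00688).

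Of 7 factors of class II promoters, 2 were lower and 2 higher. The lower genes were subunits of the RFX complex, Rfxank at 52.8% (log2 fold change -0.92, adjusted p = 0.000234) and Rfxap at 58.5% of WT (-0.77, adjusted p = 5.25e-05), whereas Rfx5, its DNA-binding subunit, did not pass. Rfxank was at 10, 6.95 and 10.6 CPM in stimulated WT and 4.76, 4.83 and 4.95 CPM in stimulated iNOS KO libraries, which did not overlap. Nfyc, a subunit of NF-Y (0.60), and Creb1 (0.39) were higher, and Nfya and Nfyb did not pass.

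Of 9 genes that carry the IFNγ signal to Ciita, 4 were lower and none higher. Among them were Jak1, the kinase bound to the receptor (-1.07, adjusted p = 8.36e-10), Irf1 (-0.79, adjusted p = 5.58e-07) and Usf1 (-0.53). Irf1 was at 1503 to 1643 CPM in stimulated WT and 824 to 1050 CPM in stimulated iNOS KO libraries, against 6.84 to 10.6 CPM at rest. The receptor genes Ifngr1 and Ifngr2, the kinase Jak2, Irf2 and the inhibitor Socs1 did not pass.

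Of 5 genes known to restrain Ciita or class II, 3 were higher and 1 lower. Il10 was at 6.72 to 7.83 CPM in stimulated WT and 44.9 to 50.1 CPM in stimulated iNOS KO libraries (log2 fold change 2.69, adjusted p = 1.15e-12). Ezh2, a histone methyltransferase (1.71), and Tgfb1 (0.26) were higher as well. Prdm1, which encodes the repressor BLIMP-1, was lower at 11.5% of WT (-3.12, adjusted p = 1.84e-10), and Bcl6 did not pass.

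Endosomal processing genes were the list with most changes, 9 of 11 lower and 2 higher. Ctss, the cathepsin that degrades the invariant chain, was at 3783, 4093 and 4198 CPM in stimulated WT and 2015, 1836 and 2061 CPM in stimulated iNOS KO libraries (log2 fold change -1.03, adjusted p = 2.14e-10). Ctsh (-1.19), Ctsd (-0.93), Ctsb (-0.63), Ctsl (-0.54) and Sppl2a (-0.54), the protease that clears the last membrane stub of CD74, were lower too. Lower by less were Ctsz (-0.34), Lgmn (-0.25) and Ifi30 (-0.20). Ctsc, which activates granule proteases, went the other way from 86 to 90.9 CPM in WT to 387 to 449 CPM in iNOS KO libraries (2.27, adjusted p = 1.18e-13), and the inhibitor Cst3 was higher (0.30). Of the surface turnover genes, the ubiquitin ligase Marchf1 (1.30, adjusted p = 0.0172) and its antagonist Cd83 (0.16) were higher and Marchf8 did not pass.

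**Figure D4:**
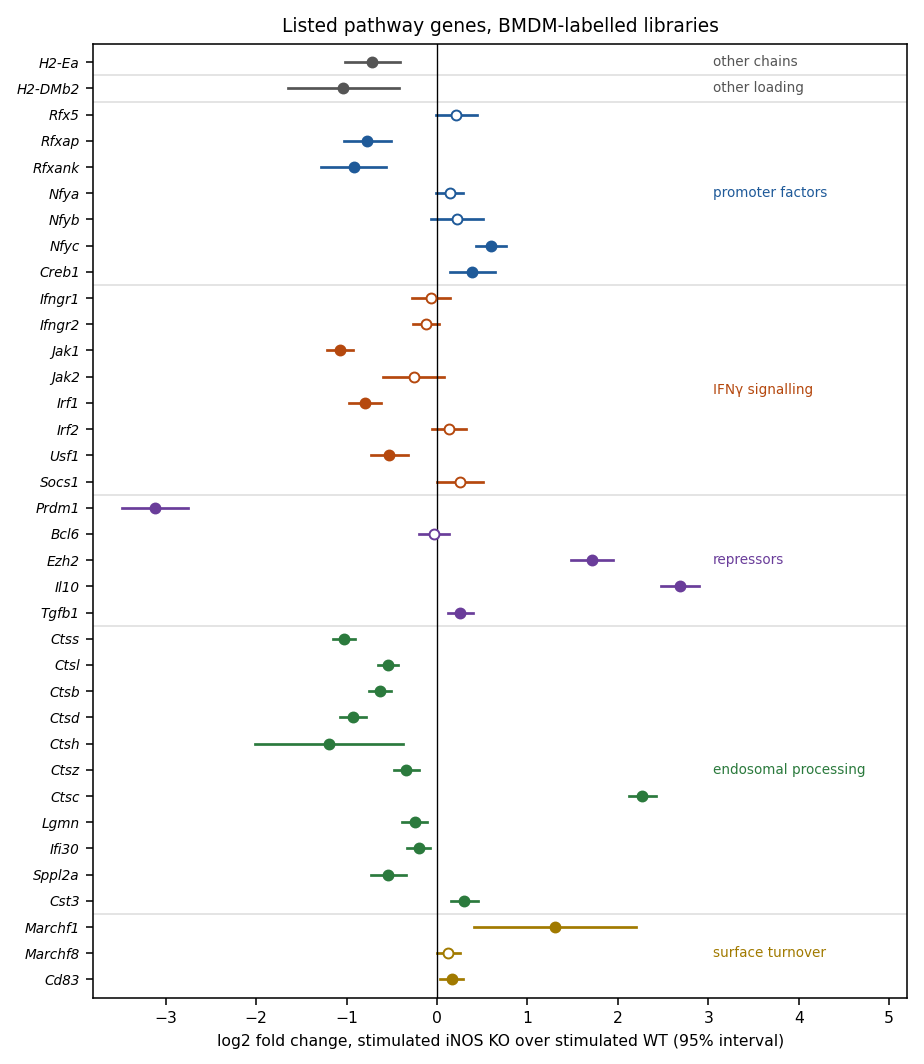
Log2 fold change of stimulated iNOS KO over stimulated WT BMDM-labelled libraries for 36 of the 37 listed genes tested, grouped by role, with 95% intervals. Filled points have an adjusted p under 0.05. Endosomal processing genes lie to the left of 0 except Ctsc and Cst3, and Prdm1 (-3.12) and Il10 (2.69) are the extremes.

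Before stimulation, 9 of the 37 listed genes were lower and 1 higher in iNOS KO cells, beside 4.09% and 1.88% of all genes. The lower ones were Prdm1 (-3.14), Cd83 (-0.28) and 7 protease genes, Ctsc (-0.70), Ctsd (-0.54), Ctsb (-0.47), Ctsz (-0.46), Ctss (-0.45), Lgmn (-0.33) and Ctsl (-0.26), and Il10 was higher (0.85). The interaction passed for 16 of the 37, with 7 larger and 9 smaller responses in iNOS KO cells, beside 20.0% and 15.4% of all genes. On stimulation itself 25 of the 37 rose and 8 fell in WT cells, where 32.4% of all genes rose and 28.5% fell. In iNOS KO cells 27 rose and 7 fell, beside 27.3% and 24.6% of all genes. Both counts of rising genes include H2-Ea, which had 0 counts at rest and could be tested only through stimulated libraries. In both genotypes Irf1 (7.34 in WT, 6.91 in iNOS KO) and Socs1 (6.56 and 6.39) rose, and Nfya (-0.95 and -0.78) and Nfyb (-0.96 and -0.71) fell, all as log2 fold changes. These comparisons share libraries with those between genotypes.

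In RAW264.7 cells Cd74 was the most abundant member, H2-DMa, H2-Oa and H2-Ob were at 0 to 9.38 CPM, and H2-Aa and H2-Ab1 were near absent. H2-Aa had 1 count and H2-Ab1 1 count over all 8 libraries, and H2-DMb1 had 4, so none of them was tested. In the 2 stimulated WT libraries H2-Aa and H2-Ab1 had 0 counts, which allows up to 0.0961 CPM over the group. Ciita had 34 counts in all, at 0 and 0.506 CPM in stimulated WT and 0.67 and 0.188 CPM in stimulated Akr1a1 KO libraries. Unstimulated libraries held 0.436 and 0.043 CPM in WT and 0 and 0.139 CPM in Akr1a1 KO cells, so its groups overlapped. RAW264.7 cells come from BALB/c mice, which carry other class II alleles than the C57BL/6 reference genome to which reads were aligned, and the part of alignment in these counts was not tested. The 6 B cell markers, with Cd79b and Ms4a1 at 3 counts or fewer, summed to 0.0726 to 0.471 CPM in unstimulated and 0.9 to 3.7 CPM in stimulated RAW264.7 libraries. The increase was mostly Pax5, at 0 in unstimulated libraries, 0.669 to 0.675 CPM in stimulated WT and 3.35 to 3.58 CPM in stimulated Akr1a1 KO libraries, while Cd22 had 8 counts in unstimulated and 1 count in stimulated Akr1a1 KO libraries. The dendritic cell sum was 6.78 to 14.1 CPM in unstimulated and 11.5 to 46.4 CPM in stimulated libraries, and the neutrophil sum 0.218 to 0.537 and 121 to 420 CPM. Their part in the results that follow was not tested.

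Cd74 was at 264 and 248 CPM in unstimulated WT and 630 and 1017 CPM in stimulated WT RAW264.7 libraries. It rose by 1.69 on the log2 scale, beyond the spread between libraries (standard error 0.22, adjusted p = 0.000513). H2-DMa was at 4.5 and 3.2 CPM before and 3.79 and 7.37 CPM after stimulation in WT cells (log2 fold change 0.56, 95% interval -0.34 to 1.45). H2-Oa went down, from 1.16 and 1.12 CPM to 0.223 and 0.113 CPM (-2.76 on the log2 scale, standard error 0.78, adjusted p = 0.0239). H2-Ob, which had 256 counts here, was at 3.63 and 3.14 CPM before and 1.56 and 0 CPM after stimulation in WT cells (-2.18, adjusted p = 0.215). H2-Eb1 had 3 counts after stimulation and 0 before. Outside H2-Oa, Cd74 alone of the tested members passed, where 18.5% of all 19569 genes rose and 19.2% fell. H2-Ob passed without replicate A of stimulated WT cells (adjusted p = 0.014, range 0.001 to 0.436), which held all 21 of its stimulated counts.

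In Akr1a1 KO cells stimulation raised H2-DMa, where 19.8% of all genes rose and 19.4% fell. H2-DMa rose from 2.59 and 3.34 CPM to 9.38 and 6.84 CPM (log2 fold change 1.44, adjusted p = 0.0203, range 0.00114 to 0.113). H2-Eb1 went from 1 and 2 counts to 5 and 17 counts, a ratio of 9.86 (95% counting interval 2.96 to 51.5). It reached the 10 counts required for testing only through this stimulated group, which held 22 of its 28 counts in RAW264.7 cells, so it is described without a test. H2-Oa went from 0.785 and 0.661 CPM to 0.134 and 0 CPM, where 2 counts were left, a ratio of 0.0927 (95% counting interval 0.0107 to 0.367). Only unstimulated libraries carried H2-Oa past 10 counts, so it too is described without a test. The call on H2-DMa was lost when unstimulated replicate A or B was left out, and also without stimulated replicate A. Cd74 was at 321 and 278 CPM before and 428 and 403 CPM after stimulation (log2 fold change 0.47, 95% interval -0.02 to 0.96, adjusted p = 0.116). It passed with no filter on low counts and with only these groups in the fit (range 0.0202 to 0.375).

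**Figure D5:**
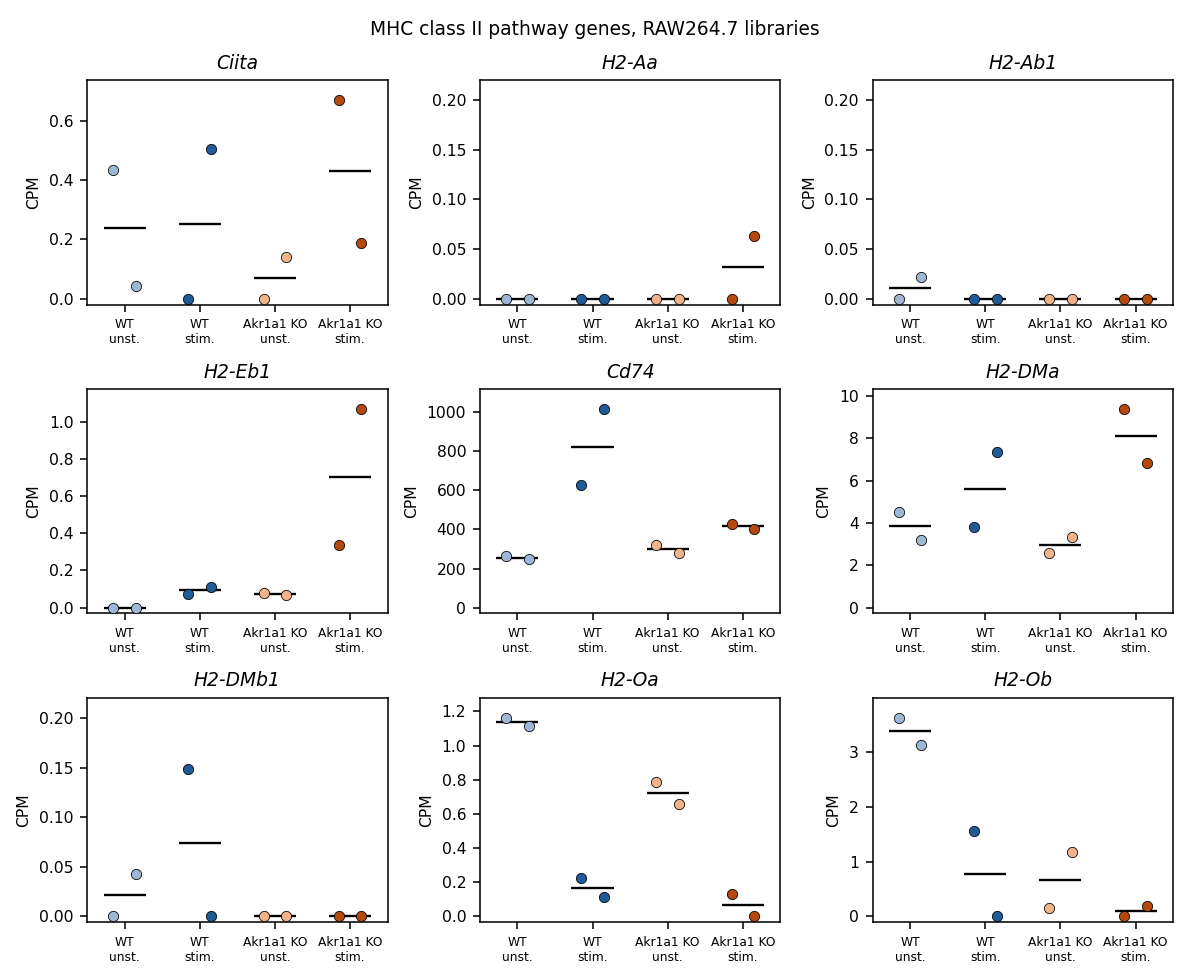
CPM of the 9 genes in the 8 RAW264.7 libraries, on a linear axis whose range differs between panels, with a point per library and a bar at the mean of the 2 libraries of a group. Cd74 is the highest member, at 248 to 1017 CPM, and H2-Aa, H2-Ab1 and H2-DMb1 stay between 0 and 0.149 CPM.

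Between Akr1a1 KO and WT cells no member passed in edgeR's test in either state or in the interaction. Calls were rare here, at 0.286% of all genes in stimulated cells, 0.583% in unstimulated cells and 0.0204% for the interaction. In stimulated cells Cd74 had an unadjusted p under 0.05. Cd74 was at 428 and 403 CPM in Akr1a1 KO and 630 and 1017 CPM in WT libraries, without overlap (-0.99 on the log2 scale, standard error 0.21, adjusted p = 0.158). DESeq2 called Cd74, as did a fit with no filter, and edgeR called it without replicate A of stimulated WT cells (-1.32, adjusted p = 0.0177, range 2.49e-06 to 0.445 over the alternatives). H2-Eb1 had 22 counts in stimulated Akr1a1 KO and 3 in stimulated WT libraries, a ratio of 7.42 (95% counting interval 2.23 to 38.7). It reached 10 counts only through that Akr1a1 KO group, so it is described without a test. Unstimulated cells had 0 members with an unadjusted p under 0.05, beside 1575 of all 19569 genes, and 0 called by DESeq2. For the interaction Cd74 had an unadjusted p of 0.0037 (log2 difference -1.21, adjusted p = 0.682) and was the 1 member DESeq2 called. H2-Ob was at 0.157 and 1.18 CPM in unstimulated Akr1a1 KO against 3.63 and 3.14 CPM in WT libraries (-2.19, 95% interval -5.00 to 0.62). By flow cytometry the study reported significantly more MHC class II on Akr1a1 KO than on WT RAW264.7 cells. That is a measure of protein, and its relation to these RNA levels was not tested.

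Of 36 listed pathway genes outside the 9 that were tested in RAW264.7 cells, 19 rose and 9 fell on stimulation in WT cells, where 18.5% of all genes rose and 19.2% fell. In Akr1a1 KO cells 18 rose and 9 fell, beside 19.8% and 19.4% of all genes. In WT cells Irf1 went from 5.16 to 6.77 CPM to 191 to 240 CPM (log2 fold change 5.15, adjusted p = 9.15e-06), and Socs1 rose (5.43). Rfx5 (-1.14, adjusted p = 0.00155), Ifi30, the lysosomal thiol reductase (-1.91), and Ctsc (-1.83) fell. Between the genotypes in stimulated cells edgeR called 0 of the 36 and DESeq2 called 3, for which no share of all genes is given. There 6 of the 36 had an unadjusted p under 0.05, as did 2177 of all 19569 genes. In unstimulated cells edgeR called Ctsh alone, lower in Akr1a1 KO cells (-2.66, adjusted p = 0.0051). For the interaction both tools called 0, with 2 at an unadjusted p under 0.05, beside 1078 of all 19569 genes.

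Because the origin of the BMDM-labelled cells is uncertain, the following values are not read as primary macrophages against a line. Set side by side without a test, since the tables are separate experiments, Irf1 after stimulation was at 1503 to 1643 CPM in WT BMDM-labelled and 191 to 240 CPM in WT RAW264.7 libraries. Ciita was at 18.4 to 23.3 and 0 to 0.506 CPM, and Cd74 at 911 to 1031 and 630 to 1017 CPM. The ranges of Cd74 overlapped, while those of Irf1 and Ciita did not.

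Across the 12 BMDM-labelled libraries the genes whose log2 CPM was most like that of H2-Aa were H2-Q5 (Pearson r = 0.9994), Tapbpl, Irgm2, Tap2 and Il15. Those most like Cd74 were Procr (r = 0.9985), Anxa2, Cdkn1a, Plaur and Rnf19b, and those most like Ciita were Tgif1 (r = 0.9984), Dtx2, Ubap1, Fam214b and Eml2. These are descriptions over 12 libraries that share 4 groups. From 892 to 977 of 8531 genes reached an r over 0.95 with each of the 3, so such values were common. By Spearman correlation 0 of the 5 genes were the same for H2-Aa and Ciita and 1 for Cd74.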

How the data were processed

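Poly(A) RNA was sequenced in 12 BMDM-labelled and 8 RAW264.7 libraries, which were grouped by genotype and treatment from the labels. By the study's methods, the authors filtered low-quality and adaptor-bearing reads, used STAR with the mm10 genome and then obtained gene counts. CASAVA is also named in the submitters' processing notes. The deposited values are whole-number counts per gene, neither normalized nor filtered.

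Genes needed 10 counts or more over a table's libraries to be tested, which 18691 and 19569 of 56748 had. After TMM scaling, edgeR 4.0.16 (R 4.3.3) was fitted with 1 mean per group over all libraries of a table. Calls used two-sided quasi-likelihood F tests and an adjusted p under 0.05 (Benjamini-Hochberg over all genes tested). Standard errors and 95% intervals came from the same statistic. Where a group held 3 counts or fewer in all, a ratio of totals with an exact binomial interval is given, or, for 0 counts, a bound against 3 counts. The scripts were tested on simulated counts.

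As alternatives, DESeq2 1.42.0, its size factors within edgeR, filterByExpr, no filter, a log2 fold limit of 1, a fit of just the compared groups, the replicate letter as a block, and omission of single libraries were tried. The members, lists and tests were chosen with earlier results of these data known. By the rule for named genes all 9 members are described, the pathway lists are counted and their called genes named, apart from an item that is not reported here, and likeness lists hold the 5 protein-coding genes outside those lists with the highest correlation, among genes with a mean log2 CPM over 3. Promoter windows came from RefSeq (GRCm38.p6), and those of H2-Ab1, Cd74 and Ciita were not used here.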

Additional observations from a re-analysis of the deposited data

Results flagged for a closer look

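The interaction between iNOS genotype and stimulation passed edgeR's test for 2 members and 16 other pathway genes in the BMDM-labelled libraries, where 20.0% of all genes had a larger and 15.4% a smaller response in iNOS KO cells. As the log2 response in iNOS KO minus that in WT cells, the members were at -0.98 (Cd74) and -0.72 (H2-DMa). Smaller responses in iNOS KO cells were also measured for the IFNγ signalling genes Jak1 (-0.94) and Irf1 (-0.43) and for the RFX subunits Rfxank (-1.07) and Rfxap (-0.68). Among endosomal processing genes they were smaller for Sppl2a (-0.59), Ctss (-0.58), Ctsd (-0.39) and Ctsl (-0.29). Larger responses were measured for Ctsc (2.97), Il10 (1.83), Ezh2 (1.63), Nfyc (0.63), Tgfb1 (0.45), Cd83 (0.44) and Cst3 (0.37).

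For the genes named below, all stimulated WT libraries lay on one side of the unstimulated WT libraries in the BMDM-labelled table and on the other side in RAW264.7 cells. The share of all genes with this pattern was not counted, so it is not read as a trait of this pathway. The difference between the experiments was not tested. In RAW264.7 cells the log2 response was -2.76 for H2-Oa, -1.14 for Rfx5, -1.18 for Ctsh, -1.83 for Ctsc, -0.61 for Lgmn, -1.91 for Ifi30 and -2.55 for Marchf1, all of which were higher after stimulation in the BMDM-labelled table. Ifngr2, the second chain of the IFNγ receptor, was at 1.05 in RAW264.7 cells and lower after stimulation in the BMDM-labelled table. Lgmn and Marchf1 did not pass in RAW264.7 cells.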

How the results depend on the processing

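The 7 members lower in stimulated iNOS KO cells were called under every alternative except a log2 fold limit of 1, which left 4 members and 9 pathway genes. That limit left 1 pathway gene between unstimulated genotypes, 0 members and 4 pathway genes in the interaction, and 20 and 18 pathway genes on stimulation in WT and iNOS KO BMDM-labelled cells. Between unstimulated iNOS KO and WT cells 1 member passed with filterByExpr, 1 with no filter and 1 with only the compared groups. Between stimulated Akr1a1 KO and WT cells DESeq2 called 1 member and 3 pathway genes, and no filter gave 2 and 5. Unstimulated, no filter gave 1 and 2. For that interaction DESeq2 called 1 member, and no filter gave 1 member and 1 pathway gene. The causes were not tested.

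With single libraries left out, the members called ranged from 0 to 1 between stimulated Akr1a1 KO and WT cells, from 1 to 3 on stimulation of WT RAW264.7 cells and from 0 to 2 on that of Akr1a1 KO cells, and the pathway genes called between unstimulated Akr1a1 KO and WT cells from 0 to 1. On stimulation of RAW264.7 cells these counts can include H2-Oa, and in Akr1a1 KO cells also H2-Eb1. Both are otherwise described without a test there. The log2 fold change of H2-DMa between unstimulated iNOS KO and WT cells ranged from -0.085 to 0.197. Ciita in RAW264.7 cells, with 34 counts, changed sign. Its log2 fold change ranged from -0.534 to 6.202 between stimulated and -4.940 to 0.932 between unstimulated genotypes, from -0.275 to 7.225 for the interaction and from -5.013 to 2.490 on stimulation of WT cells.

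Same-letter libraries deviated together with correlations of -0.097 to 0.102 in the BMDM-labelled table, so the letters were not taken as pairs. In RAW264.7 cells the range was -0.096 to 0.254. Between states of the same genotype it was 0.254 in WT and 0.104 in Akr1a1 KO cells. With 2 libraries per group these values cannot settle whether a letter marks a clone, and the main fit left the letters unpaired. The replicate block gave a letter the same effect in both genotypes. With the replicate block, 7 members were again called between stimulated iNOS KO and WT cells. On stimulation of Akr1a1 KO cells 2 rather than 3 were called, where the count of 3 includes H2-Eb1 and H2-Oa. RAW264.7 groups had 2 libraries each and lone libraries were assumed to vary like the other groups. Members under 10 counts were not testable at this depth.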
